A study of Rattus norvegicus with 24 samples.

Results

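Transcripts of the core circadian clock were followed in rat lung across 8 groups of libraries. The members were 10 genes taken by symbol, namely Arntl, Clock, Npas2, Per2, Per3, Cry1, Cry2, Nr1d1, Nr1d2 and Dbp, out of 16881 distinct gene symbols in the count tables. All 10 passed the filter on low counts, as did 11426 genes in all. No member passed an adjusted p of 0.05 against control at any dose and day, with adjustment over all tested genes. The activators Arntl and Npas2 and the repressors Per2 and Cry2 had their lowest group mean at 20 mg/mL and 6 days. How many of all tested genes had theirs in that group was not counted. For Per2 and Cry2 that group lay below the control of that day without overlap, as it did for 4.67% of all tested genes. The members also varied from library to library. Arntl and Clock did so together over the 24 libraries, though the pair did not pass within 6 or 12 days alone.

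The lungs came from wild-type rats, and the treated groups had received whole-cigarette smoke condensate (WCSC), the material that condenses from cigarette smoke. The labels give 5, 10 or 20 mg/mL of WCSC and control lungs, each at 6 and at 12 days, with 3 libraries in each of the 8 groups and 24 in all. Control and treated groups share the wild-type genotype and the tissue. The sources used here do not state the strain, the age, the route of exposure, the control's vehicle or the hour at which tissue was taken. Nothing in the labels says that the 3 libraries of a group came from separate animals, so the p-values measure the spread between these samples, which may be technical.

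The circadian clock is a loop of transcription and translation that runs in almost every cell, lung epithelium included. The activators CLOCK (or NPAS2) and BMAL1, the protein of Arntl, pair and switch on the Period and Cryptochrome genes, whose proteins return to the nucleus and block the activators. The same activators drive the nuclear receptors REV-ERB alpha and beta (Nr1d1 and Nr1d2), which repress Arntl, and the output factor DBP. In a tissue with a running clock, Arntl therefore peaks at about the opposite hour to Nr1d1 and Dbp, and the level of each transcript depends on the time of sampling.

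Library totals lay between 4795667 and 11109713 counts. After every library was thinned to 1 common number of counts, between 11449 and 12487 genes had a read; this is called the detected-gene number here. The 8 libraries with the lowest detected-gene number (11449 to 11747) held 6 of the 12 libraries at 6 days. The 7 lung epithelium markers were all present, with a summed level of 9220 to 36000 CPM, counts of a gene per 1000000 counts of its library. The 6 heart muscle markers summed to 2960 CPM in replicate 2 of the 20 mg/mL group at 12 days and to at most 196 CPM in any other library. Of the 4 macrophage markers, Marco was at 0 in every library. These are bulk tissue libraries, in which fewer cells of a type and less RNA per cell cannot be told apart.

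Promoter sequences are shown for Per2 and Cry2, whose levels moved together, and for Arntl, which belongs to the most closely correlated pair. An entry in the RefSeq promoter table (build GRCr8) was found for 9 of the 10 members, all but Cry1. Each line gives the 250 bases before the transcription start, 5′ to 3′ on the gene's strand, and capitals mark the matches to clock-related motifs.
Arntl: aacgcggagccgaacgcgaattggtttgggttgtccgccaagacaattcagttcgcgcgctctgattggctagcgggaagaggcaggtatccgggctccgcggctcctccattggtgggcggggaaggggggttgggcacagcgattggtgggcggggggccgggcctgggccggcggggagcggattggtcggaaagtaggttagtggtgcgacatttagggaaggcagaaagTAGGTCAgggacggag
Per2: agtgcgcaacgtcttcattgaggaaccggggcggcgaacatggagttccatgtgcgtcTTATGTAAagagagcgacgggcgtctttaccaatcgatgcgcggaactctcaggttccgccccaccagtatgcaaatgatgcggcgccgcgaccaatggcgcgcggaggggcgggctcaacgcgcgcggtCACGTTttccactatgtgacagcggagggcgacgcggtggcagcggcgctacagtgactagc
Cry2: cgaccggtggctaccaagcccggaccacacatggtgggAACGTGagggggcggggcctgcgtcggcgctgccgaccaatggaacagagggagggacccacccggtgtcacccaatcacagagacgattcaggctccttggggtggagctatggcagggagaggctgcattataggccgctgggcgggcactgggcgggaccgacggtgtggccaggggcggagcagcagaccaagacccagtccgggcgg
The Arntl stretch (listed by RefSeq as Bmal1) lies at chr1:176766078-176766327 on the plus strand, the Per2 stretch at chr9:99496994-99497243 and the Cry2 stretch at chr3:98860438-98860687, both on the minus strand. The Arntl capitals TAGGTCA are the core of the element bound by ROR and REV-ERB receptors, and start 16 bases before the transcription start. In Per2 the capitals TTATGTAA are a D-box, the element of DBP and its relatives, and CACGTT is an E′-box, a variant of the element bound by the activators. In Cry2 the same E′-box reads AACGTG, from the other strand.

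Over both strands of the 33469 promoters of 300 bases in the table, 4.83% held the E′-box CACGTT, 1.01% a D-box (TTATGTAA or TTACGTAA), 2.63% TAGGTCA and 6.42% the canonical E-box CACGTG. The E′-box differs from the E-box in its last letter alone, and no 2 matches overlapped in the members' promoters. Among the members, CACGTT was also found before the first of 2 listed starts of Nr1d1, and CACGTG before the second. A match describes these letters in this window and is not a measured binding site.

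**Figure D1:**
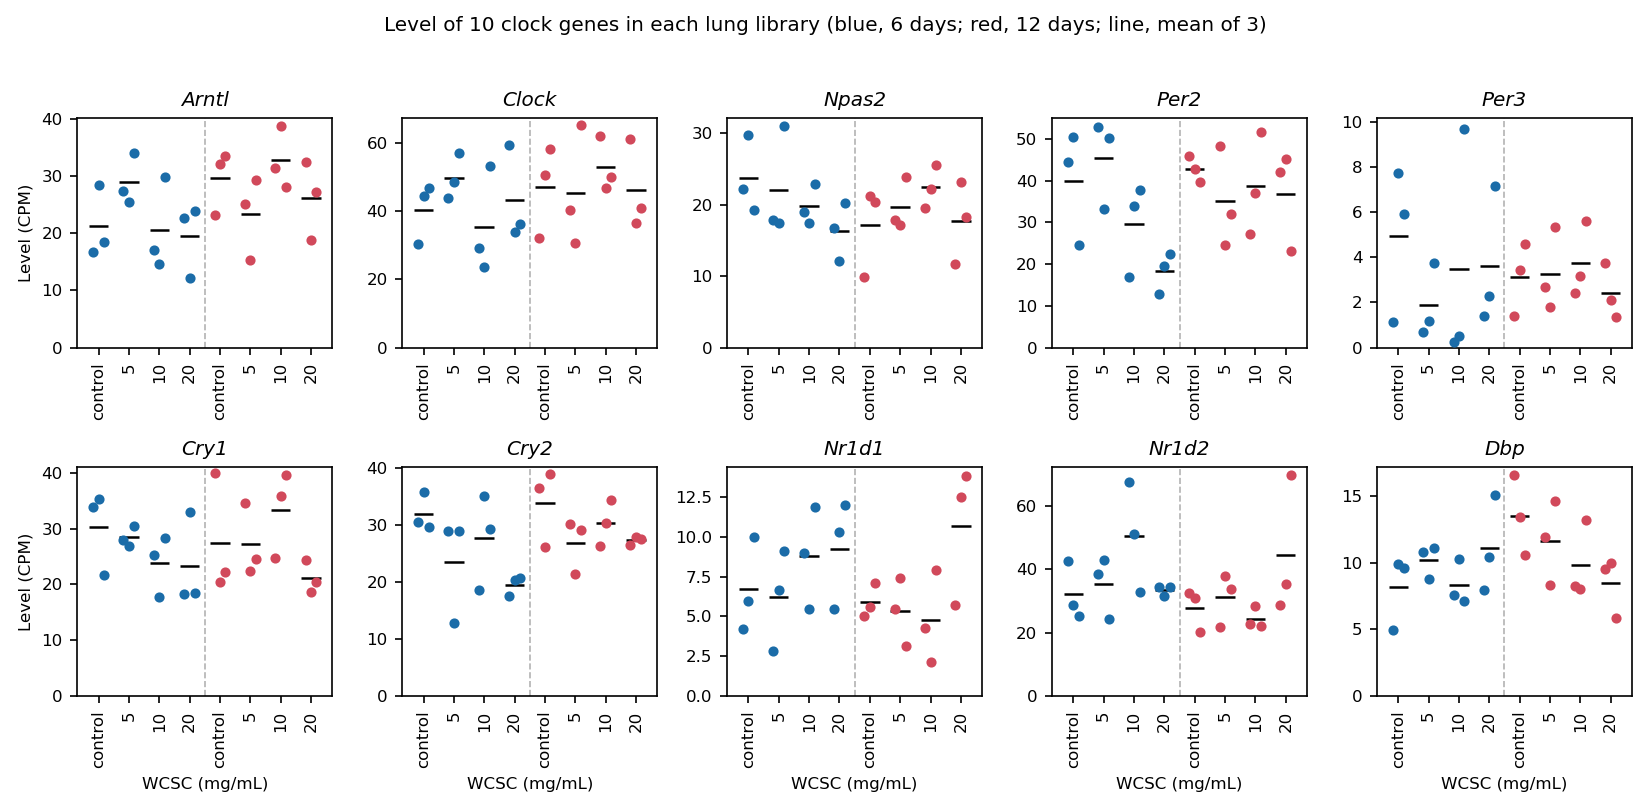
Level of each member in CPM (vertical axes, each from 0) in the 3 libraries of every group, with control and the 3 WCSC doses in mg/mL on the horizontal axes. Points are libraries, blue at 6 days and red at 12 days, and the short lines are group means. The group means of Per2 and Cry2 are lowest at 20 mg/mL and 6 days. Those of Arntl and Npas2 are too, but their libraries there overlap the control. Most treated groups overlap the control of their day.

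None of the 3 activators passed the test against control at any dose and day. Arntl encodes the shared partner of CLOCK and NPAS2. At 6 days it stood at 16.8, 28.5 and 18.5 CPM in the controls, at 27.4, 25.5 and 34.1 CPM at 5 mg/mL, at 17.1, 14.6 and 29.9 CPM at 10 mg/mL and at 22.6, 12.1 and 23.9 CPM at 20 mg/mL. At 12 days it stood at 23.3, 32.2 and 33.5 CPM in the controls, 25.2, 15.4 and 29.4 CPM at 5 mg/mL, 31.4, 38.8 and 28.1 CPM at 10 mg/mL, and 32.5, 18.8 and 27.3 CPM at 20 mg/mL. Every treated group overlapped its control. The fitted log2 fold changes of Arntl against control ran from -0.35 (SE 0.32) at 5 mg/mL and 12 days to 0.45 (SE 0.32) at 5 mg/mL and 6 days, where the alternatives gave 0.25 to 0.72. Averaged over the 4 treatments, Arntl had a log2 difference of 0.32 (SE 0.16) between 12 and 6 days, with an unadjusted p of 0.0581 and an adjusted p of 0.547 in edgeR's quasi-likelihood test with Benjamini-Hochberg adjustment. That was the lowest adjusted p of any member in any comparison of this edgeR fit, while some alternatives gave lower ones.

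Clock, which encodes a transcription factor that pairs with BMAL1, ranged over the 24 libraries from 23.7 to 65.2 CPM with a median of 45.6 CPM. Its group means lay between 35.4 ± 15.7 CPM (SD, n = 3) at 10 mg/mL and 6 days and 52.9 ± 8.1 CPM at 10 mg/mL and 12 days. Its fold changes against control lay between -0.20 and 0.30 on the log2 scale. Npas2, a paralog of Clock that can replace it, ranged from 9.92 to 31.0 CPM. Its lowest group mean was 16.3 ± 4.07 CPM at 20 mg/mL and 6 days, against 23.8 ± 5.37 CPM in the controls of that day, which was its highest. The Npas2 difference was -0.54 on the log2 scale (SE 0.31), and the groups overlapped.

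Per2 encodes a Period protein, which carries Cryptochromes into the nucleus and is also induced directly by hormonal and light signals. At 6 days it stood at 44.5, 50.5 and 24.5 CPM in the controls, at 52.9, 33.2 and 50.1 CPM at 5 mg/mL, at 17.0, 33.9 and 37.7 CPM at 10 mg/mL and at 12.8, 19.5 and 22.5 CPM at 20 mg/mL. The 20 mg/mL libraries all lay below the lowest control, while the 5 and 10 mg/mL libraries overlapped the controls. Markers of immune cells also separated in that comparison. The summed level of the 4 macrophage markers was 213 to 246 CPM at 20 mg/mL and 131 to 195 CPM in the controls, and that of the 3 T cell markers 23.3 to 45.9 and 12.5 to 20.8 CPM. The B cell markers with a row, 2 of 3, summed to 14.0 to 19.8 CPM against 20.7 to 29.2 CPM. Their part in the Per2 and Cry2 values was not tested, and the other lists of cell type markers overlapped there. For Per2 the mean was 18.3 ± 4.96 CPM at 20 mg/mL and 39.9 ± 13.6 CPM in the controls, a log2 fold change of -1.12 (SE 0.35, 95% interval -1.84 to -0.39). Its unadjusted p in edgeR's quasi-likelihood test was 0.00412 and its Benjamini-Hochberg adjusted p over the 11426 genes was 1.00, so the difference did not pass. At 12 days Per2 stood at 46.0, 42.7 and 39.6 CPM in the controls and at 42.1, 45.1 and 23.2 CPM at 20 mg/mL, and the groups overlapped. The 20 mg/mL effect at 12 days minus that at 6 days was 0.90 (SE 0.49), with an unadjusted p of 0.0797 and an adjusted p of 1.00 in edgeR, so the effects at the 2 times were not shown to differ.

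Cry2 encodes one of the 2 Cryptochromes, the main repressors of the activator pair. Its 6-day values were 30.6, 35.9 and 29.6 CPM in the controls, 29.0, 12.8 and 28.9 CPM at 5 mg/mL, 18.7, 35.1 and 29.4 CPM at 10 mg/mL and 17.5, 20.3 and 20.7 CPM at 20 mg/mL. Both the 5 and the 20 mg/mL libraries lay below every control, at 5 mg/mL by a narrow margin in replicates 1 and 3. The means were 19.5 ± 1.75 CPM at 20 mg/mL and 32.0 ± 3.36 CPM in the controls, with a log2 fold change of -0.71 (SE 0.27, 95% interval -1.28 to -0.15). The unadjusted p was 0.0158 and the adjusted p 1.00 in edgeR's quasi-likelihood test. At 5 mg/mL the log2 fold change was -0.44 (SE 0.27), with an adjusted p of 0.896 in edgeR, and -0.14 without replicate 2 of that dose. At 12 days Cry2 stood at 36.6, 26.2 and 38.9 CPM in the controls and at 26.6, 28.0 and 27.5 CPM at 20 mg/mL, where the lowest control fell below all treated libraries. The Cry2 fold changes at 12 days were -0.33, -0.16 and -0.31 at 5, 10 and 20 mg/mL, with SE 0.27 each.

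Cry1, the other Cryptochrome, ranged from 17.7 to 39.9 CPM, and its groups overlapped the same-day control at every dose. Its group means lay between 21.2 ± 2.94 CPM at 20 mg/mL and 12 days and 33.3 ± 7.67 CPM at 10 mg/mL and 12 days. Per3, a Period gene held to be less essential for the rhythm, was thinly covered, with 2 to 69 counts per library. At 6 days it stood at 1.15, 7.74 and 5.92 CPM in the controls and at 0.24, 0.498 and 9.7 CPM at 10 mg/mL. The 10 mg/mL libraries thus held both the lowest and the highest Per3 level of the 24. Its biological coefficient of variation, the replicate spread estimated by edgeR, was 0.771, above that of 93.4% of tested genes. The 95% interval of a Per3 fold change reached at least 1.96 log2 units to either side, so a value 2-fold away from the fitted one lay inside it.

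Nr1d1 and Nr1d2 encode the REV-ERB receptors, which bind haem and repress Arntl. Nr1d1 had 13 to 113 counts per library. At 12 days it stood at 5.06, 5.61 and 7.09 CPM in the controls and at 5.75, 12.5 and 13.8 CPM at 20 mg/mL. A pair of the treated libraries lay above all controls and the third among them. The log2 fold change was 0.85 (SE 0.51, 95% interval -0.21 to 1.91), with an adjusted p of 0.998 in edgeR. Nr1d2 at 12 days stood at 32.4, 30.9 and 20.3 CPM in the controls and at 28.6, 35.5 and 69.8 CPM at 20 mg/mL, the highest being replicate 3. Its log2 fold change was 0.69 (SE 0.33), with an unadjusted p of 0.046 and an adjusted p of 0.998 in edgeR's test. Without that replicate the Nr1d2 fold change was 0.20.

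At 6 days Nr1d2 stood at 42.7, 28.7 and 25.4 CPM in the controls and at 67.4, 51.1 and 32.8 CPM at 10 mg/mL, and the groups overlapped. The log2 fold change was 0.64 (SE 0.32, 95% interval -0.02 to 1.31), with an adjusted p of 0.989 in edgeR. Over the alternatives it ran from 0.27 to 0.90, with 0.38 when replicate 1 at 10 mg/mL was left out. In the 20 mg/mL group of that day Nr1d2 was at 34.4, 31.7 and 34.3 CPM, within the control range. Nr1d1 at 6 days had group means from 6.21 ± 3.15 CPM at 5 mg/mL to 9.26 ± 3.38 CPM at 20 mg/mL, against 6.74 ± 2.97 CPM in the controls.

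Dbp encodes an output factor that relays the rhythm to metabolic genes and, in a running clock, swings widely over the day. At 6 days it stood at 4.99, 9.91 and 9.59 CPM in the controls and at 7.93, 10.4 and 15.1 CPM at 20 mg/mL, with overlap. At 12 days it stood at 16.6, 13.4 and 10.6 CPM in the controls, 11.9, 8.31 and 14.6 CPM at 5 mg/mL, 8.24, 8.03 and 13.2 CPM at 10 mg/mL, and 9.52, 9.99 and 5.87 CPM at 20 mg/mL. Only the 20 mg/mL libraries lay wholly below the controls of that day. Their log2 fold change was -0.68 (SE 0.35, 95% interval -1.40 to 0.04), with an unadjusted p of 0.0632 and an adjusted p of 0.998 in edgeR's test. Without replicate 2, the library with the heart muscle transcripts, the Dbp fold change was -0.82, that of Nr1d1 0.73 and that of Nr1d2 0.83.

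The Dbp level in the controls also differed by day. The 12-day controls lay above all 6-day controls, with means of 13.5 ± 3.02 and 8.16 ± 2.76 CPM and a log2 difference of 0.72 (SE 0.35). Its unadjusted p was 0.0476 and its adjusted p 1.00 in edgeR. Dbp was the 1 member of 10 whose control groups did not overlap, against 4.71% of tested genes that lay higher without overlap and 4.21% that lay lower. The 20 mg/mL effect on Dbp at 12 days minus that at 6 days was -1.13 (SE 0.49), with an unadjusted p of 0.03 and an adjusted p of 1.00 in edgeR. That contrast uses the controls of both days.

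**Figure D2:**
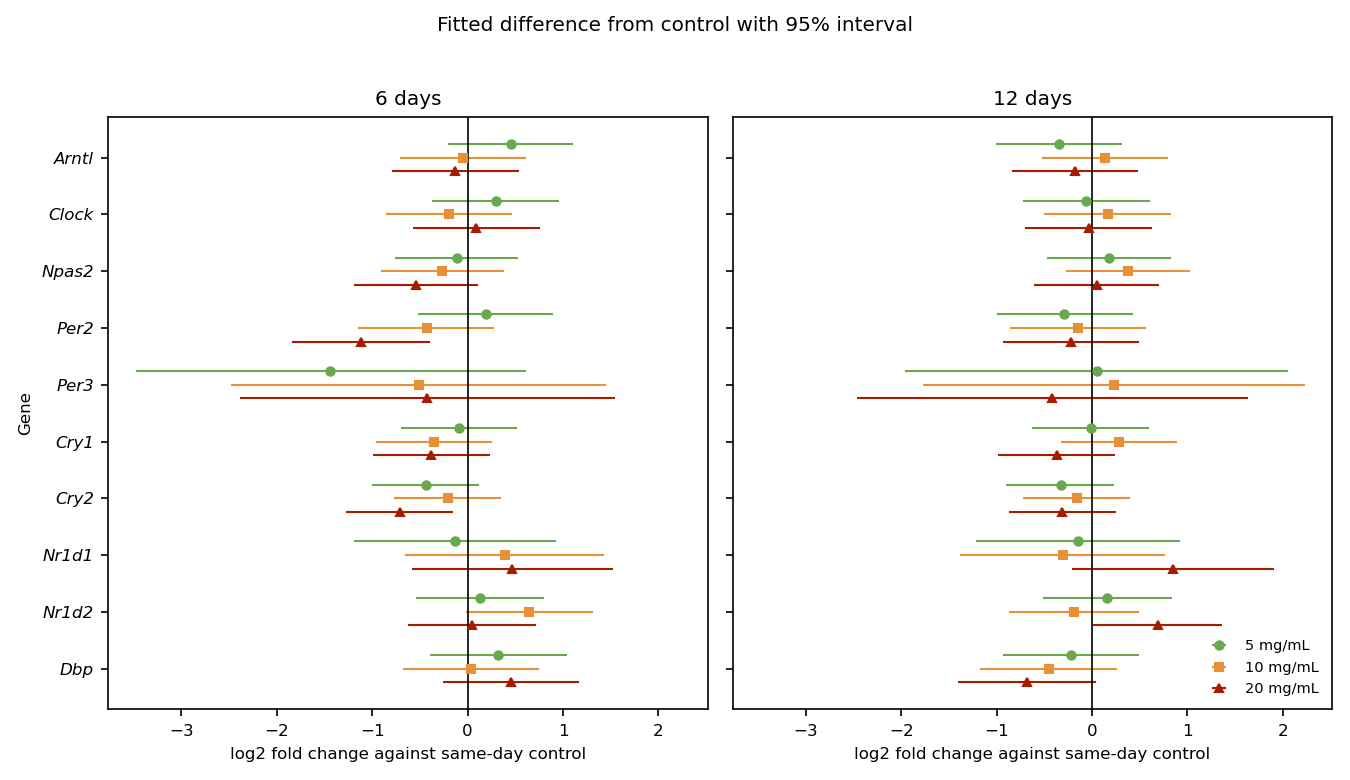
Fitted log2 fold change of each member against the control of the same day (horizontal axes) at 6 days, left, and 12 days, right. Markers are the 3 doses and bars the 95% intervals from edgeR. The Per2 and Cry2 intervals at 20 mg/mL and 6 days and the Nr1d2 interval at 20 mg/mL and 12 days leave out 0, and those of Per3 are the widest.

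Counted together, 0 of the 10 members were called in each of the 6 dose comparisons by edgeR's quasi-likelihood test at an adjusted p under 0.05, and 0.0% of the 11426 tested genes were called in each. The 3 doses of a day share their controls. An unadjusted p under 0.05 was found for 2 of 10 members (Per2 and Cry2, both lower) at 20 mg/mL and 6 days, where 465 tested genes (4.07%) had one, and for 1 (Nr1d2, higher) at 20 mg/mL and 12 days, where 420 (3.68%) had one. At 5 and 10 mg/mL, 0 members had one at either day, against 536 (4.69%) and 308 (2.7%) tested genes at 6 days and 143 (1.25%) and 239 (2.09%) at 12 days. DESeq2 called 2, 0 and 3 genes at 5, 10 and 20 mg/mL and 6 days and 1, 1 and 4 at 12 days, and limma 0, 5 and 2 and 0, 0 and 2, with 0 members among any of them.

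Groups without overlap were seen in 4 of the 60 pairings of a member with a dose comparison, all of them lower than control. They were Per2 and Cry2 at 20 mg/mL and 6 days, Cry2 at 5 mg/mL and 6 days and Dbp at 20 mg/mL and 12 days. Of tested genes, 4.13%, 3.24% and 4.67% lay lower without overlap at 5, 10 and 20 mg/mL and 6 days, and 3.93%, 4.55% and 4.09% at 12 days. The shares that lay higher were 4.17%, 2.98% and 4.07% at 6 days and 3.86%, 3.91% and 3.57% at 12 days, where 0 members did. The members' median log2 fold change was 0.02, -0.20 and -0.25 at 5, 10 and 20 mg/mL and 6 days, and -0.10, -0.00 and -0.20 at 12 days. Over all tested genes it lay between -0.01 and 0.01 in those comparisons. Of the 60 fitted values, 31 turned in sign under at least 1 other setting of the analysis. None of these was larger than 0.51 in size in the main fit.

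The comparisons of time and of time by dose gave the same count. No member was called between the control groups, between 12 and 6 days over the 4 treatments, in the 3 differences of dose effects, or among the 8 groups jointly, where edgeR called 0.0% of tested genes. At an unadjusted p under 0.05, edgeR had 283 (2.48%), 1060 (9.28%) and 477 (4.17%) genes in the control, day and joint tests and 235 (2.06%), 213 (1.86%) and 437 (3.82%) in the dose differences. DESeq2 called 0, 37 and 49 genes in the first 3 and 2, 0 and 0 in the others, and limma 0, 16 and 3 and 0, 0 and 0, with 0 members among them. Over all 120 tests of a member, 6 had an unadjusted p under 0.05, including the joint test of Per2 with 0.0434. The ratio of the highest to the lowest group mean had a median of 1.71 over the members and 1.59 over all tested genes.

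The 95% interval of a fold change in a dose comparison reached 0.56 to 0.73 log2 units to either side for Arntl, Clock, Npas2, Per2, Cry1, Cry2, Nr1d2 and Dbp, and 1.04 to 1.08 for Nr1d1. The biological coefficient of variation of those first 8 genes lay between 0.236 for Cry2 and 0.296 for Per2, near the median of 0.283 over tested genes. That of Nr1d1 was 0.418, above that of 73.8% of tested genes. The intervals do not carry the adjustment over all tested genes. Per2 at 20 mg/mL and 6 days had a log2 fold change of -1.12, larger in size than 0.73, and did not pass.

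The second question was how the members varied together between libraries. Pearson's r of the log2 level over the 24 libraries was computed for all 45 pairs, with permutation p-values adjusted over the 45 pairs by the Benjamini-Hochberg method. It passed an adjusted p of 0.05 in 5 pairs, 3 positive and 2 negative. How many pairs of other tested genes would pass was not counted. The median size of r was 0.28 over the 45 pairs. With all tested genes, a member's median size of r lay between 0.16 for Nr1d1 and 0.35 for Per3. As a set the members were thus not more closely correlated than with tested genes in general. Libraries of all groups enter these values, and depth and the detected-gene number vary between them as well as treatment.

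**Figure D3:**
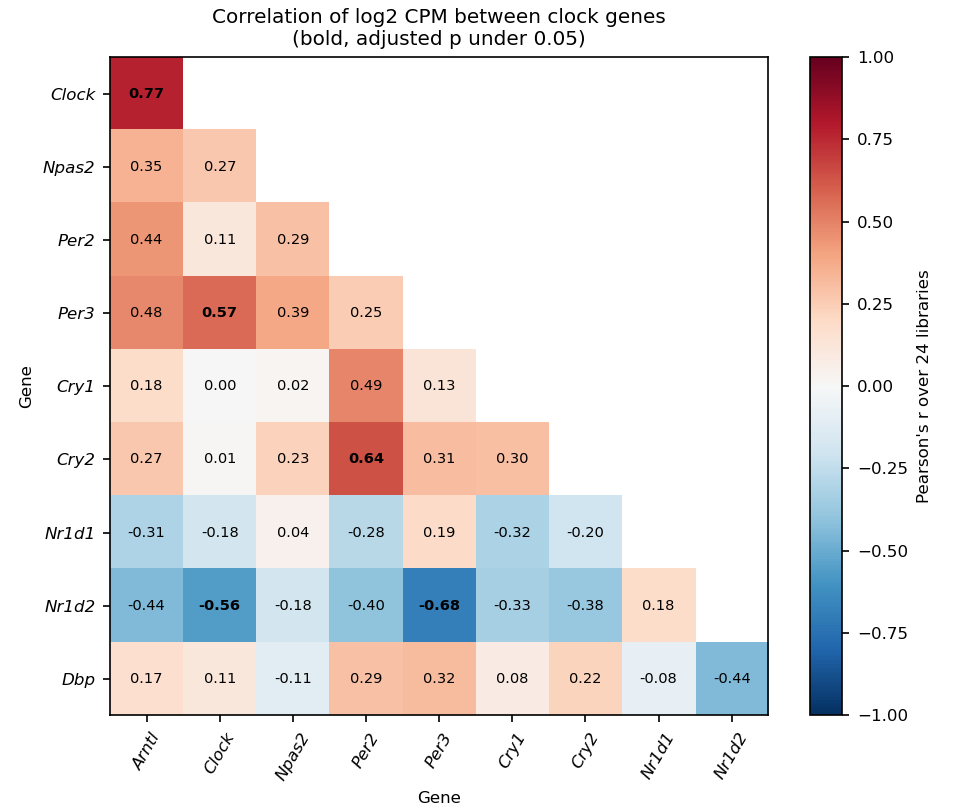
Pearson's r of log2 CPM between each pair of members over 24 libraries, red for positive and blue for negative, with the 5 pairs under an adjusted p of 0.05 in bold. Arntl and Clock have the highest value, 0.77, and Per3 and Nr1d2 the lowest, -0.68.

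Arntl and Clock, the partners of the activator complex, had an r of 0.77 (95% interval by Fisher's z 0.53 to 0.90, adjusted permutation p 0.0009) and a Spearman's rho of 0.76 (adjusted permutation p 0.0018). Both were low in replicate 2 at 10 mg/mL and 6 days, with 14.6 CPM of Arntl and 23.7 CPM of Clock, and high in replicate 1 at 10 mg/mL and 12 days, with 31.4 and 62.1 CPM. Within days r was 0.75 at 6 days and 0.77 at 12 days, where the adjusted permutation p was 0.122 and 0.105 with 12 libraries each. With group means subtracted r was 0.76 (adjusted permutation p 0.0429), and without the 2 libraries farthest from the median of Arntl it was 0.74 (adjusted permutation p 0.00675). Of tested genes, 0.219% had an r with Arntl at least as high as that of Clock, and 0.814% an r with Clock at least as high as that of Arntl.

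Per2 and Cry2, a Period and a Cryptochrome whose proteins act in 1 complex, had an r of 0.64 (95% interval 0.32 to 0.83, adjusted permutation p 0.0144) and a rho of 0.63 (adjusted permutation p 0.0238). The value was 0.62 at 6 days, 0.58 at 12 days and 0.65 with group means subtracted, the last with an adjusted permutation p of 0.0243. Without the 2 libraries farthest from the median of Per2 it was 0.50 with an adjusted permutation p of 0.14, so the call did not hold without them, while it held in all 24 sets that leave out 1 library. An r with Per2 as high as that of Cry2 was found for 0.0875% of tested genes, and an r with Cry2 as high as that of Per2 for 1.3%. Per2 with Cry1 had an r of 0.49 (adjusted permutation p 0.115; rho 0.52) and Cry1 with Cry2 0.30 (adjusted permutation p 0.349; rho 0.40), and neither passed.

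Per3 and Nr1d2 had an r of -0.68 (95% interval -0.85 to -0.38, adjusted permutation p 0.0063) and a rho of -0.67 (adjusted permutation p 0.00922). Within days it was -0.80 and -0.61, and without the 2 libraries farthest from the median of Per3 -0.52 (adjusted permutation p 0.14), so this call too did not hold without them, while it held in all 24 sets that leave out 1 library. An r as low was found for 6.51% of tested genes with Per3 and for 0.884% with Nr1d2. Clock had an r of 0.57 with Per3 (rho 0.54) and of -0.56 with Nr1d2 (rho -0.53), each with an adjusted permutation p of 0.0339 for r and of 0.0605 for rho. Clock with Per3 was 0.51 and 0.75 within days and Clock with Nr1d2 -0.67 and -0.41. Without the 2 libraries farthest from the median of Clock they were 0.37 and -0.40 (adjusted permutation p 0.30 and 0.28), and with 1 library left out they passed in 14 and 16 of 24 sets, so both calls depend on which libraries enter. An r with Clock at least as high as that of Per3 was found for 5.08% of tested genes, and one at least as low as that of Nr1d2 for 2.7%. An r as high as that of Clock was found with Per3 for 10.9%, and one as low with Nr1d2 for 5.03%.

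Arntl did not pass with Dbp, Nr1d1 or Nr1d2, and Dbp did not pass with either receptor gene. Arntl and Dbp had an r of 0.17 (95% interval -0.25 to 0.54, adjusted permutation p 0.542) and a rho of 0.14. Arntl and Nr1d1 had -0.31 (95% interval -0.63 to 0.11, adjusted permutation p 0.33) and a rho of -0.20, and Arntl and Nr1d2 -0.44 (-0.72 to -0.04, adjusted permutation p 0.147) and a rho of -0.56 (adjusted permutation p 0.0557). Nr1d1 and Dbp, both driven by the activators through E-boxes, had -0.08 (95% interval -0.47 to 0.33), and Nr1d2 and Dbp -0.44 (adjusted permutation p 0.147). The intervals are wide, and values of either sign remain within those of Arntl with Dbp and of Nr1d1 with Dbp.

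**Figure D4:**
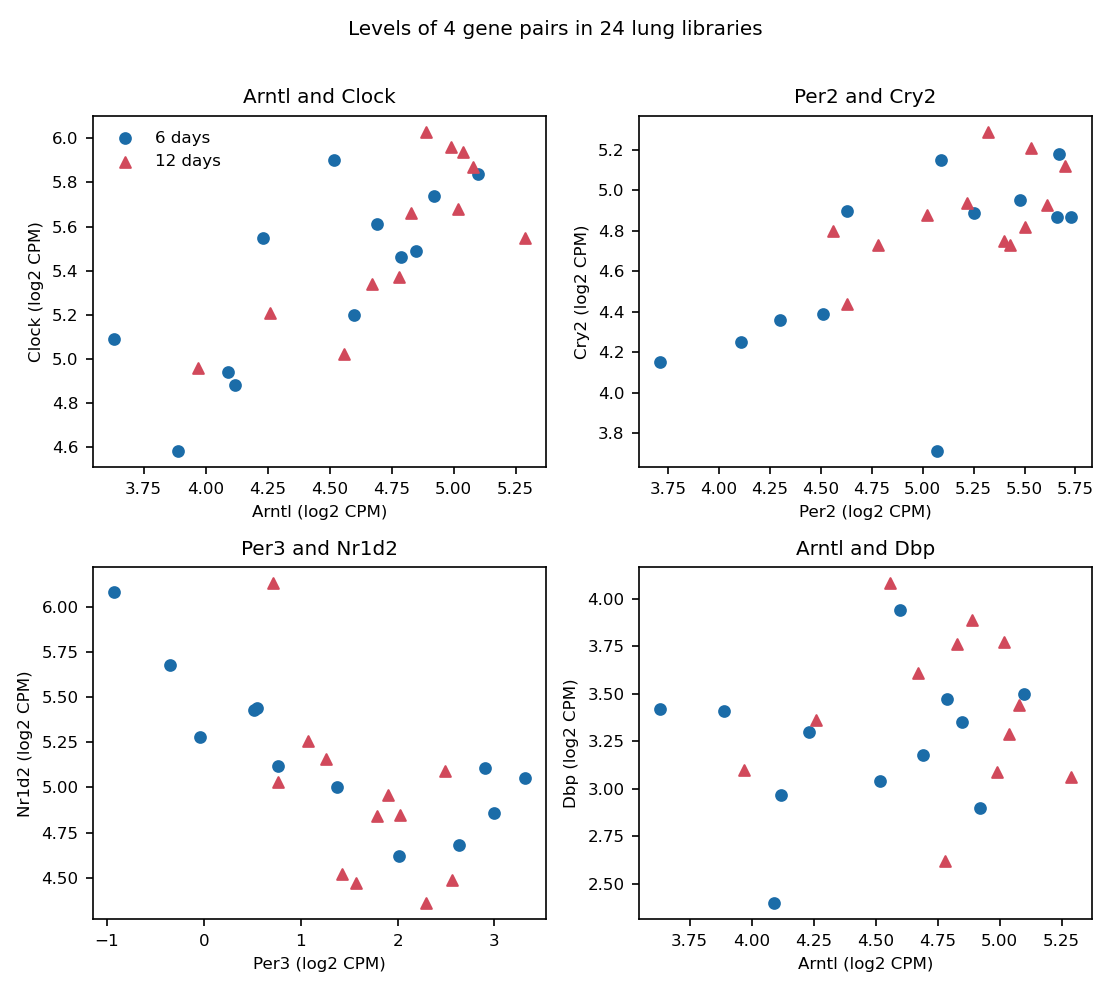
Log2 CPM of 4 gene pairs in the 24 libraries, with 6 days as blue circles and 12 days as red triangles. Arntl and Clock and Per2 and Cry2 rise together, Per3 and Nr1d2 run opposite, and Arntl and Dbp have an r of 0.17.

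Some members followed the detected-gene number of their library, as did a large share of all tested genes. Over 24 libraries Per3 had an r of 0.82 with it (rho 0.81, adjusted permutation p over the 10 members 0.0001 for r and 0.0003 for rho) and Nr1d2 -0.64 (rho -0.56, adjusted permutation p 0.00275 and 0.0184). Within the 6-day and 12-day libraries Per3 had 0.86 and 0.68 and Nr1d2 -0.72 and -0.55, and without the 2 libraries farthest from the median the values were 0.83 and -0.62. Npas2 had 0.51 (rho 0.65, adjusted permutation p 0.0342 and 0.00395; 0.59 and 0.62 within days; 0.61 without the 2 farthest) and Clock 0.48 (rho 0.42, adjusted permutation p 0.0427 and 0.068; 0.45 and 0.47 within days; 0.51 without the 2 farthest). Arntl had 0.45 (rho 0.45, adjusted permutation p 0.0593 and 0.068), with 0.51 and 0.15 within days, and did not pass. Nor did Dbp, with 0.42 (rho 0.43, adjusted permutation p 0.0666 and 0.068). Of the 10 members, Per3, Nr1d2 and Npas2 had an r of at least 0.5 in size with the detected-gene number. Of all tested genes, 29.9% had one, so this trait is not particular to the members. The share of all tested genes that would pass the adjusted p was not counted.

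With the detected-gene number removed by regression, an alternative chosen after seeing the data, Per3 with Nr1d2 had an r of -0.34, Clock with Per3 0.34 and Clock with Nr1d2 -0.38, each with an adjusted permutation p of 0.311. Arntl with Clock kept an r of 0.71 (adjusted permutation p 0.00405) and Per2 with Cry2 of 0.61 (adjusted permutation p 0.0387). In the 16 libraries with the highest detected-gene number Arntl with Clock had 0.67 and did not pass (adjusted permutation p 0.0884), Per2 with Cry2 had 0.79 and passed (adjusted permutation p 0.0135), and Per3 with Nr1d2 had -0.13 (adjusted permutation p 0.848). The fold changes of Per2 and Cry2 at 20 mg/mL and 6 days were -1.15 and -0.72 once that number entered the model.

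**Figure D5:**
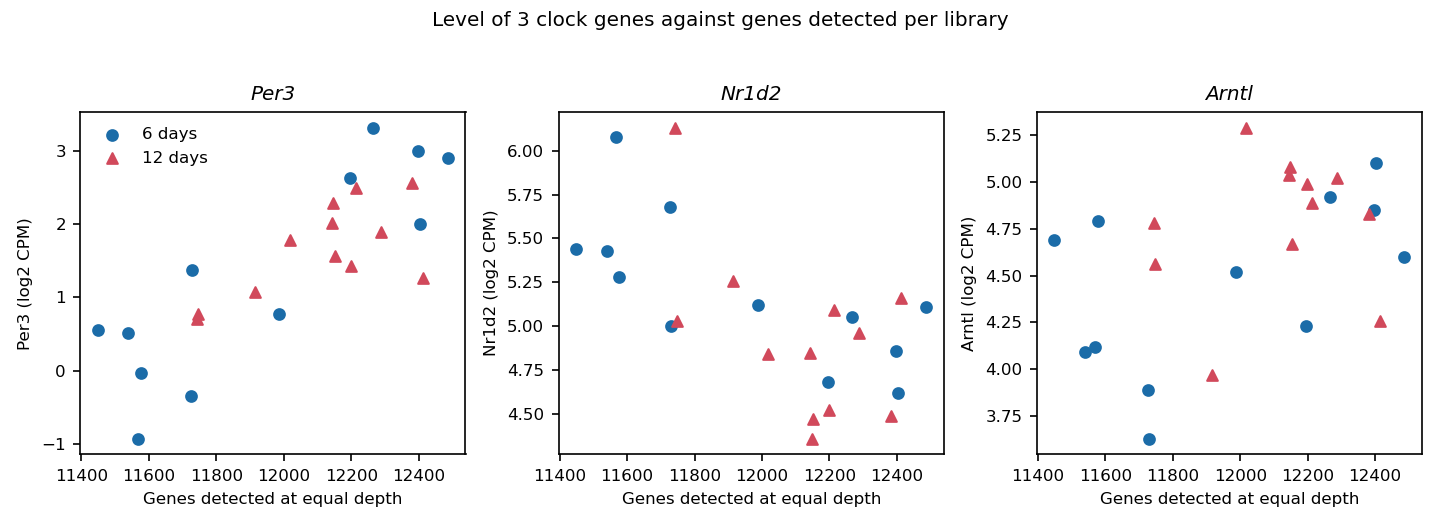
Log2 CPM of Per3, Nr1d2 and Arntl (vertical axes) against the detected-gene number (horizontal axes) in 24 libraries, with 6 days as blue circles and 12 days as red triangles. Per3 is higher and Nr1d2 lower in libraries with more detected genes, with r of 0.82 and -0.64.

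Other genes of the clock pathway were read from a list of 24 symbols, of which 18 had a row in the tables and 16 were tested. Of the 16, 0 were called in either direction in the 6 dose comparisons by edgeR, DESeq2 or limma, with 1 unadjusted p under 0.05, that of Nfil3 at 20 mg/mL and 6 days. Per1, the Period gene most directly induced by stress hormones, had 0 to 5 counts and a read in 7 of 24 libraries, and Arntl2, a paralog of Arntl, 0 to 7 counts, and neither was tested. Bhlhe41, Hlf, Rora and Fbxl21 were among the genes with no row. The symbol Ccrn4l had none either, but it is an older name of Noct, which had a row and was tested.

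The 3 tested genes with the smallest p for any difference among the 8 groups were Wee1, Tef and Nfil3, with unadjusted p of 0.103, 0.207 and 0.271 in edgeR and an adjusted p of 0.999 each. Wee1, a kinase that holds back mitosis, lay between group means of 21.0 ± 3.74 CPM at 20 mg/mL and 6 days and 36.5 ± 5.88 CPM at 20 mg/mL and 12 days. Tef, a relative of Dbp, lay between 24.3 ± 1.55 CPM in the 6-day controls and 35.9 ± 13.4 CPM at 20 mg/mL and 12 days. Nfil3, which competes with DBP for D-boxes, lay between 12.9 ± 3.38 CPM in the 6-day controls and 19.9 ± 2.15 CPM at 20 mg/mL and 6 days. Its 20 mg/mL range of 17.7 to 22.0 CPM at 6 days did not overlap the control range of 8.96 to 14.8 CPM, and the log2 fold change was 0.63 (SE 0.27), with an unadjusted p of 0.0283 and an adjusted p of 1.00 in edgeR. Higher groups without overlap were also seen at 6 days for Bhlhe40 at 5 mg/mL and Tef at 10 mg/mL. Fbxw11 lay so at 10 mg/mL and 12 days. With Nfil3 these were 4 cases over the 16 tested genes of the list, each read in the 6 dose comparisons. Of all tested genes, 2.98% to 4.17% lay higher without overlap in a comparison, as given above. Genes of the list that lay lower without overlap are not counted here, so these cases give no direction for the list. By fitted fold change, 7, 9 and 5 of the 16 were higher at 5, 10 and 20 mg/mL and 6 days. At 12 days 8, 9 and 12 were higher, and on both days the remaining genes were lower.

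Nfil3, Ciart and Btrc had the largest Spearman's rho with Dbp among the list, 0.34, 0.33 and 0.30 over 24 libraries, given as a description. Ciart, a repressor of the activators, had at most 1.79 CPM in any library, and Btrc, a ubiquitin ligase subunit that marks Period proteins for decay, had group means of 7.05 to 10.2 CPM. Group means of the casein kinases that phosphorylate Period proteins lay between 154 and 188 CPM for Csnk1d, and Csnk1e had a median of 11.7 CPM over the libraries. The ubiquitin ligase subunit Fbxw11 lay between 82.9 and 115 CPM. Nampt, an enzyme of NAD synthesis under clock control, lay between 79.5 and 112 CPM, and Klf9, a glucocorticoid-responsive output factor, between 458 and 527 CPM. Group means ran from 0.693 to 1.65 CPM for Bhlhe40, 0.449 to 1.66 for Rorb, 19.0 to 26.5 for Timeless, 4.75 to 8.73 for Usp2 and 6.11 to 11.7 for Noct.

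The genes outside the clock whose levels ran most like that of Arntl over the 24 libraries, by Spearman's rho, were Ppp1r15b (0.88), Pex7 (0.86), Dock9 (0.85), Fzd1 (0.84) and Lrp12 (0.83). Among the most opposite were Psmc1 (-0.86), Crip1 (-0.76), Gpr89b (-0.76) and Ctsz (-0.75). Psmc1 also ran against the detected-gene number, with r of -0.75, whereas Arntl itself had 0.45 with it. For Dbp the most alike were Map2k5 (0.74), Sin3a (0.70), Gtf2h4 (0.69), Sytl1 (0.67) and Npepl1 (0.67), and the most opposite Dnajc10 (-0.71), Scyl2 (-0.69), Fam118b (-0.67), Mthfd1 (-0.66) and Ltv1 (-0.66). Members were left out of this search beforehand, so their absence here is no result. No gene of the pathway list is among these genes. They were picked as the extremes of 11426 genes, so their values are a description without a test.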

How the data were processed

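RNA from rat lung was measured by QuantSeq, a kit that reads transcript ends, per the labels' protocols. The deposited values are counts of reads per gene symbol for each of 24 samples; Bowtie2, bedtools and the rat build rn6 are named by the submitters' processing notes, without versions. Each table had 17048 lines. Where a symbol was repeated (149 symbols) its first line was used, which left out 167 lines and 0.982% of the counts. Genes kept by filterByExpr (11426) were scaled by TMM and fitted with edgeR 4.0.16 as 1 model of 8 group means (16 residual degrees of freedom), tested by quasi-likelihood and adjusted by Benjamini-Hochberg over all tested genes. CPM are TMM-scaled. Correlations used log2 CPM with a prior count of 2 and 100000 permutations of the samples. The scripts were tested on simulated data. Members, lists and tests were chosen with earlier results of these data known. All members, the pathway genes with the smallest joint p or the largest rho with Dbp, and the 5 genes most and least like Arntl and Dbp are named, except that some genes are not reported here. Replicate numbers were not treated as pairs. Alternatives were limma 3.58.1 (voom with quality weights), DESeq2 1.42.0, scaling by RLE, genes with at least 1 read, a replicate block, only the 2 groups compared and each library left out. The detected-gene number as a model term, the 16 libraries where it was highest and correlations after regression on it were added after seeing the data. Counting intervals and replicate spread cover these libraries alone. Promoter letters are RefSeq's on GRCr8, while the counts are on rn6, and no coordinate was carried between builds.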

Additional observations from a re-analysis of the deposited data

How the results depend on the processing

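No member was called under any alternative in any comparison. The lowest adjusted p was 0.0664, for Per3 at 10 mg/mL and 6 days in limma, with a log2 fold change of -3.04. In the main fit that fold change was -0.51, and over the alternatives it ran from -3.68 to 0.5. The log2 fold changes of Per2 and Cry2 at 20 mg/mL and 6 days lay between -1.37 and -0.91 and between -0.79 and -0.62. Of the 60 fold changes of members against control, 31 turned in sign under at least 1 alternative. For 29 of them this happened when 1 library was left out. None of the 31 was larger than 0.51 in size in the main fit, though values under the alternatives could be larger. The cause was not tested.

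Among the fold changes given by value, those of Per3 and Clock at 10 mg/mL and 6 days turned. That of Clock was 0.22 in the 16 libraries with the highest detected-gene number. It ran from -0.61 to 0.03 when 1 library was left out. Of all 60, 18 turned under an alternative other than leaving out a library. The changed values of the others are given here as counts alone, a choice made after those values were seen.

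Against 0 genes called by edgeR, DESeq2 called 2 and 3 at 5 and 20 mg/mL and 6 days, 1, 1 and 4 at 5, 10 and 20 mg/mL and 12 days, 37 between days, 2 for the 5 mg/mL difference between days and 49 jointly. Limma called 5 and 2 at 10 and 20 mg/mL and 6 days, 2 at 20 mg/mL and 12 days, 16 between days and 3 jointly. With all genes of at least 1 read 1 gene was called at 20 mg/mL and 6 days and 16 jointly, and RLE scaling gave 1 at 20 mg/mL and 6 days. With the detected-gene number in the model 1 was called at 20 mg/mL and 6 days and 2 jointly. In the 16 libraries 3 were called at 20 mg/mL and 6 days, 1 at 10 mg/mL and 12 days and 2 jointly. In the 2 groups alone 2 were called at 10 and 1 at 20 mg/mL and 12 days. Leaving out 1 library gave 0 to 2 calls at 5 mg/mL and 6 days, 0 to 11 between days and 0 to 17 jointly.

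Samples that share a replicate number were not paired by the labels, and their deviations from the group means correlated from -0.184 to 0.59 at 6 days (median 0.173, against -0.105 between different numbers) and from -0.156 to 0.204 at 12 days (median 0.02, against -0.019). At 6 days 8 of 12 samples, and at 12 days 5 of 12, correlated best with their own number. The replicate block called 1 gene at 20 mg/mL and 6 days and none in the other dose comparisons or the differences of dose effects. Between days and jointly it also called none. Its contrasts there compared levels fitted for replicate 1, not group means, so they do not check the main calls. Per2 at 20 mg/mL and 6 days had -1.15 under the block.

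Correlated pairs numbered 5 with RLE scaling or a prior count of 0.5, 3 by Spearman's rho, 3 with group means subtracted, 0 in the 6-day and 0 in the 12-day libraries, 1 without the 2 farthest libraries, 2 with detected genes removed (3 by rho), 1 in the 16 libraries, and 3 to 6 with 1 library left out. Arntl with Clock, Per2 with Cry2 and Per3 with Nr1d2 passed in all 24 of these last sets, Clock with Per3 in 14 and Clock with Nr1d2 in 16. Per3 (2 to 69 counts) and Nr1d1 (13 to 113 counts) had the fewest counts and the widest intervals among the members.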
